A study of Mus musculus with 4 samples.

Results

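The genes described here are the expressed lincRNAs of cells sorted from the periosteum, the sheath around the bone shaft, of the mouse femur. LincRNAs are long intergenic non-coding RNAs, genes annotated as long transcripts without a protein product that lie outside the bodies of protein-coding genes. The members were chosen by their measured group means, as the rows of the authors' deposited table typed as lincRNA whose 2 group means, summed and multiplied by the span of the gene, reached 70, which corresponds to about 1 read per kilobase and per M reads (RPKM). Of 3707 lincRNA rows, 75 reached this level and 73 were kept, with H19 and Meg3 left out by the rule. Their expression as such is therefore a description. The table holds 47643 genes in all, 6559 of them at the same level. The members just inside the threshold were Gm26772 at 70.6, Fam120aos at 71.1 and Gm5547 at 72.1 on this scale. Just outside it were 1110006O24Rik at 68.2, 2410080I02Rik at 67.7 and Gm13063 at 67.6. The scale gives more weight to the RPKM of libraries with fewer reads, so the threshold is not the same mean RPKM for every gene. Thus 1110006O24Rik was outside with a mean of 1.26 RPKM and Gm26772 inside with 0.971. Of the 73 members, 54 had both group means above 35, while 13 passed only through the mean of the labelled cells and 6 only through that of the unlabelled cells. Members that passed through 1 mean only were brought in by the group with the higher mean on this scale. Their differences are therefore a description.

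Both groups came from the same animals, double heterozygous mice with 1 Sox9CreErt2 allele (Sox9tm1(cre/ERT2)Haak) and 1 Td-Tomato reporter allele (Gt(ROSA)26Sortm14(CAG-tdTomato)Hze). All mice had tamoxifen, 100 µL of a 20 mg/mL solution given 3 times every 48 h, so that cells active for the Sox9 locus at that time, and their progeny, became red. Intact femora were taken 2 weeks later, and cells released from the diaphyses were sorted into TdTomato-positive and TdTomato-negative cells. Material was pooled from 9 mice in 2 collections, and each collection gave 1 library of each group, so the spread given below is that between pooled collections and not between mice. The sources used here give no ages or sexes. Cells sorted as TdTomato-negative cells are all unlabelled cells of the digest and not 1 cell type.

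Long non-coding RNAs are mostly transcribed by RNA polymerase II and, like messenger RNAs, capped and mostly spliced, and most are kept at low levels. Some stay in the nucleus and organise it, such as Malat1 in nuclear speckles, Neat1 in paraspeckles and Xist on the inactive X chromosome. Others, the Snhg genes, carry small nucleolar RNAs (snoRNAs) in their introns, which guide chemical modification of ribosomal RNA, or carry microRNAs, as Mir17hg does. Many further lincRNAs start next to a protein-coding gene on the opposite strand and share its promoter region.

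The positive libraries had implied depths of 32.0 M (shallower) and 41.6 M reads (deeper), and the negative ones 17 M (shallower) and 74.0 M (deeper). The 4 values of a gene are always given in this order. The 2 values of a group carry no library name in the table. Whole read numbers settled which library each came from in both groups for 47 members, and for the other 26 members a range covers both possibilities. Levels are RPKM over the whole gene span, introns included. Differences are log2(RPKM + 0.1), positive minus negative, with an SE from the spread between the libraries of a group. Such a difference does not depend on which value belongs to which library, but its SE does. With 2 libraries against 2, an exact two-sided permutation test of 1 gene cannot go below p = 0.333.

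Markers of other cells differed between the groups. All 12 chondrocyte, 10 osteoblast and 9 tendon and fibroblast markers were higher in positive cells. All 10 neutrophil, 6 eosinophil, 7 B cell, 7 T and NK cell, 7 erythroid and 5 pan-leukocyte markers were lower there, whereas 6 of 7 macrophage markers, all 5 platelet markers, all 6 endothelial markers and 5 of 6 muscle markers were higher. Summed muscle markers lay between 80.8 and 227 RPKM in the positive group and between 0.847 and 883 in negative cells over both assignments. Summed endothelial markers were at 1.16, 2.49, 1.89 and 0.449 RPKM, so the shallower negative library lay between the positive ones. Of the platelet markers, Ppbp, Gp9 and Itga2b were high in the deeper positive library alone, at 611, 45.7 and 8.22 RPKM. For these the shallower positive library lay below at least 1 negative one, whereas for Gp1bb it lay above both, at 3.10 RPKM. Pf4 could not be resolved. The negative libraries also differed from each other. Summed chondrocyte markers reached 47.1 RPKM in the shallower negative library and 0.282 in the deeper one, with 2 and 4 of the 12 markers at 0, against 235 to 1181 RPKM in positive cells under either assignment. The sum over the tendon and fibroblast markers was 222 and 0.291 RPKM in the same negative libraries, against 147 to 794 RPKM in positive cells over both assignments. For these markers the shallower negative library thus lay within the positive range, and only the deeper one lay below it. Neutrophil markers were high in all libraries, summing to between 3530 and 15584 RPKM in the positive group and between 7454 and 41889 RPKM in negative cells, with none of the 10 at 0. In bulk RNA, fewer cells of a type and less RNA per cell cannot be told apart. The part of cell composition in the lincRNA differences below was not tested.

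More lincRNAs were higher in positive cells than lower, but none passed the test. Of the 73 members, 51 were higher in positive cells and 22 lower (69.9% higher, against 56.3% of all 6559 genes at the level and 54.9% of the 5650 protein-coding genes among them). Their median log2 difference was 0.70, beside 0.17 over all genes at the level and 0.12 over the protein-coding ones, and it ran from -2.92 to 3.56. Antisense genes at the level had a median of 0.60 (n = 45) and processed pseudogenes one of 0.58 (n = 468), so a median above that of coding genes was not limited to lincRNAs. Members with at least 2-fold higher levels in positive cells numbered 25, where 20.8% of genes at the level did so, and 9 were at least 2-fold lower, where 14.5% did.

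In the authors' deposited table, 0 members had an FDR under 0.05, as did 0.00630% of all genes in either direction, or 3 genes. At an unadjusted p under 0.05 the same table holds 4 members higher and 1 lower, where 3.49% and 1.33% of the genes at the level were so called, and 0.598% and 0.296% of all genes. Of the 54 members with both group means above 35, 3 were higher and 0 lower at that p. The deposited p depended on the estimate almost alone. The SE implied by them lay between 0.990 and 1.07 on the natural log scale for members with an estimate beyond 0.5, whatever the spread between a gene's own libraries. Limma on log2(RPKM + 1), which uses that spread, called 0 members at an adjusted p under 0.05 (percent called over all genes tested 0), with a smallest adjusted p of 0.482 among members. At an unadjusted p under 0.05, limma held 5 members higher and 3 lower, where 5.87% and 3.66% of all genes tested were so called. The groups did not overlap in 24 members (32.9%) under every assignment, 18 of them higher in positive cells and 6 lower. Of all genes at the level, 25.2% were so separated, 15.3% higher and 9.86% lower. Among the 54 members with both group means above 35, the share was 25.9%, with 10 higher and 4 lower. In that subset the share was thus close to that of all genes, which were not limited in this way.

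**Figure D1:**
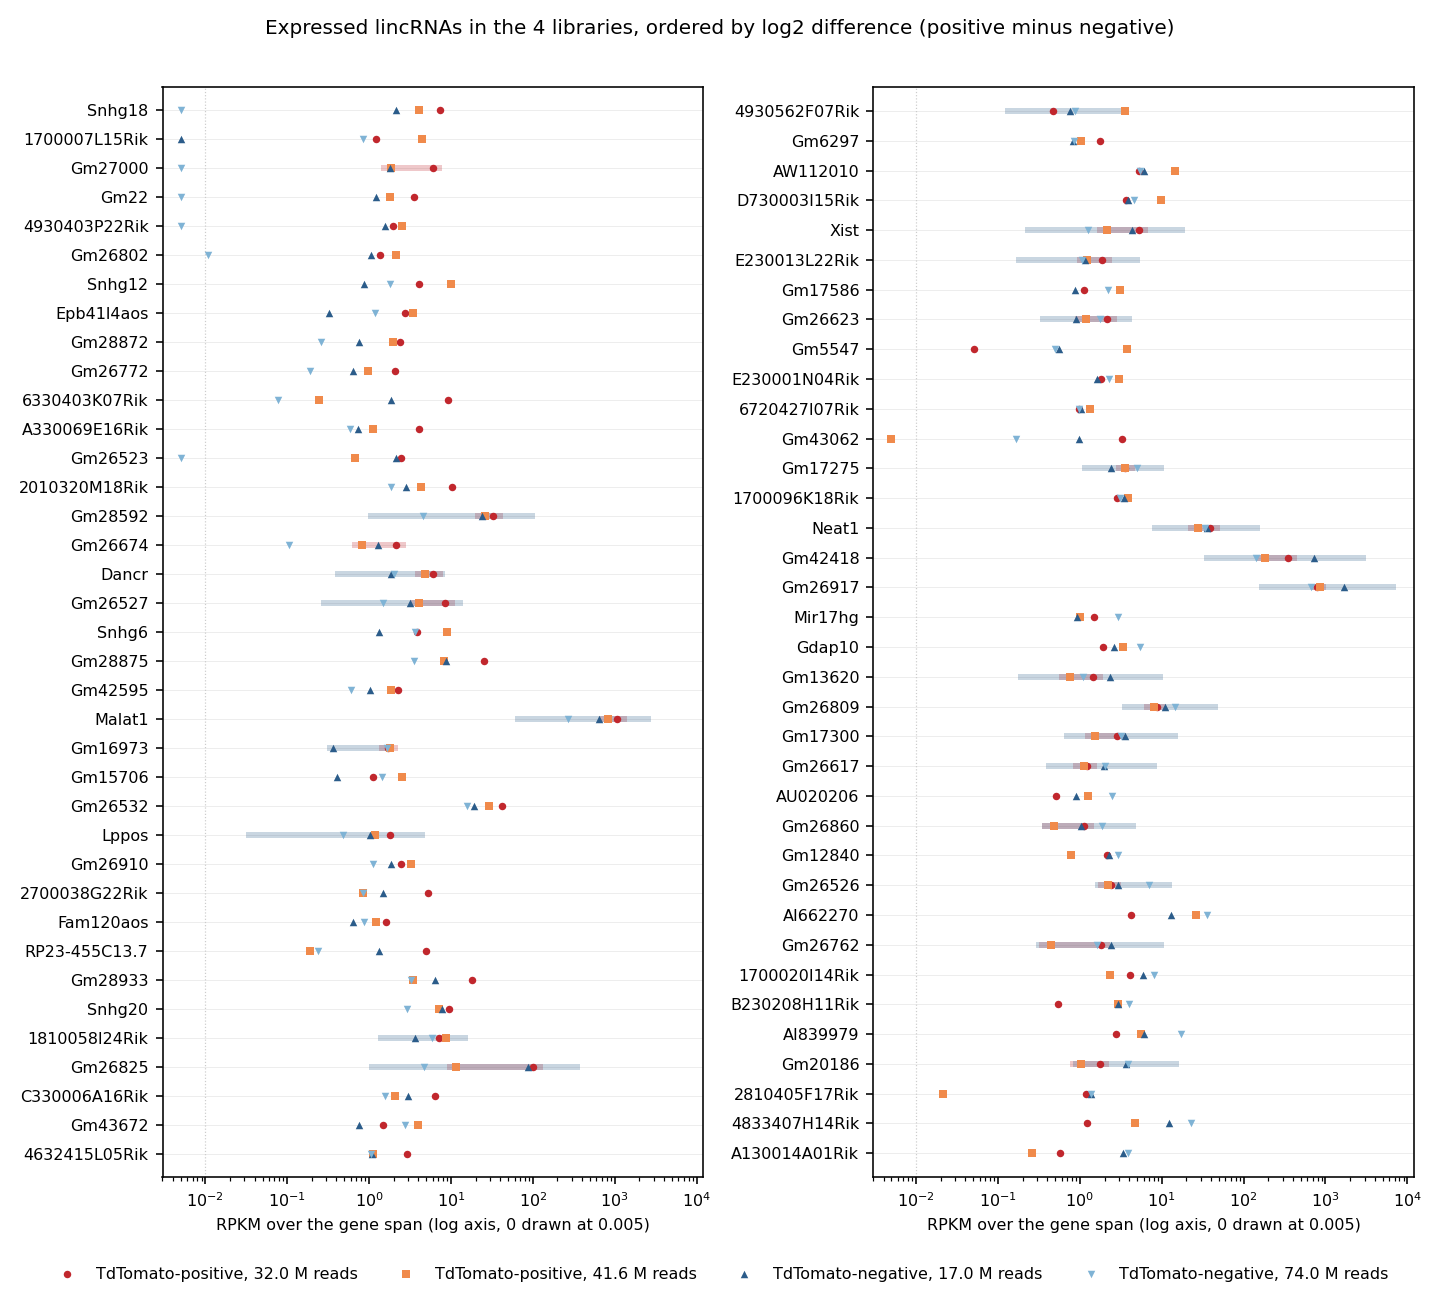
RPKM over the gene span (log axis, 0 drawn at 0.005) of all 73 expressed lincRNAs in the 2 TdTomato-positive (red, orange) and 2 TdTomato-negative libraries (dark and light blue), ordered by log2 difference from the highest (Snhg18, 3.56) to the lowest (A130014A01Rik, -2.92). Pale bars span both possible assignments of a group's values to libraries where the reads did not settle it. At the top of the order several members have no read in the deeper negative library, and at the foot both negative libraries lie to the right.

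The median rested on certain libraries and on the assignment of the 26 unresolved members. With the assignment of smaller spread, it was 0.38 without the shallower positive library and 0.38 without the deeper negative one, against 0.74 and 0.65 without the other two. With the other assignment it was -0.13 without the shallower negative library and 0.91 without the deeper negative one, with 36 and 58 of the 73 members higher. Under either assignment, 23 of the 51 members higher in positive cells kept their sign with each library left out in turn, as did 9 of the 22 lower ones. Among the 26 unresolved members only Gm26674 and Gm27000 did so, beside 30 of the 47 resolved ones. The deeper negative library had 0 reads of 5 members (Snhg18, Gm22, Gm26523, Gm27000 and 4930403P22Rik), which the shallower one did hold. Levels of the members spread over 3 orders of magnitude by their mean RPKM, from 0.971 to 994 with a median of 2.18.

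**Figure D2:**
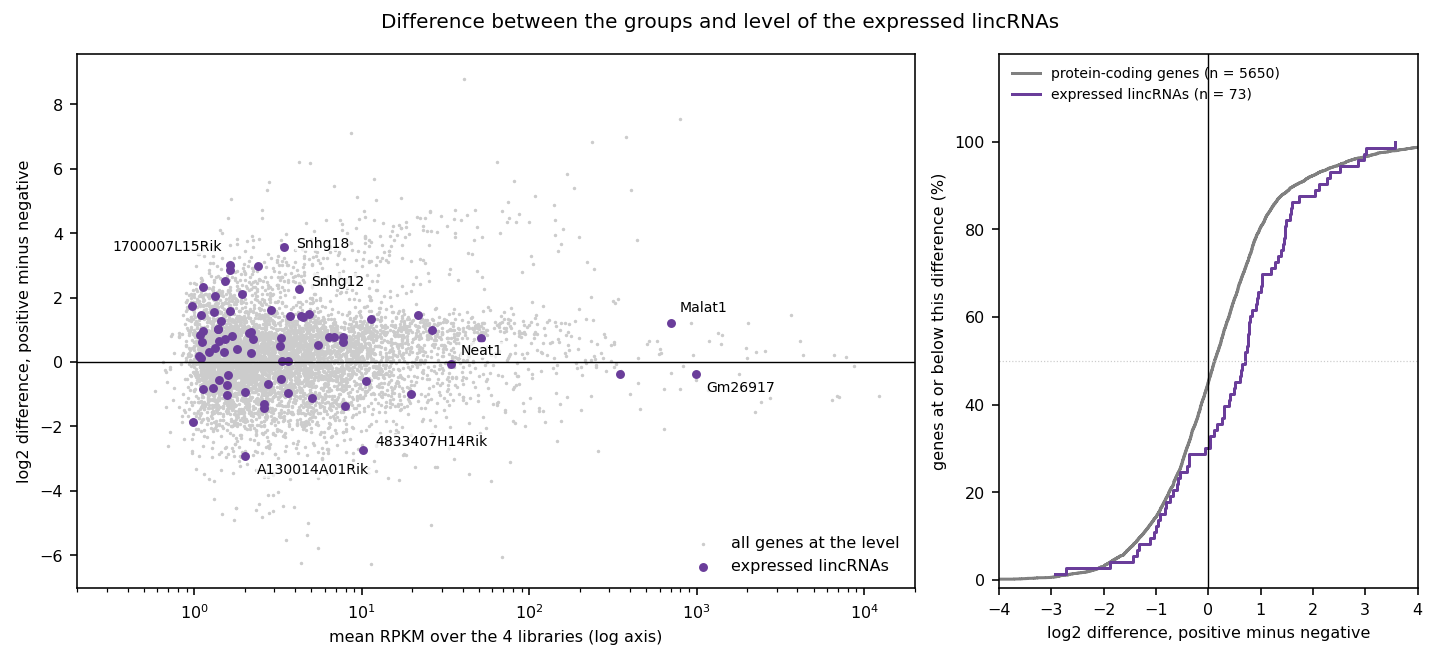
Left, log2 difference (positive minus negative) against the mean RPKM of the 4 libraries on a log axis for all 6559 genes at the level (grey) and the expressed lincRNAs (purple); right, the share of genes at or below each difference for protein-coding genes and lincRNAs. The lincRNA curve crosses 50% at 0.70 and that of coding genes at 0.12, and the most abundant lincRNAs, Gm26917 and Malat1, have differences of -0.36 and 1.20.

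The snoRNA host genes were all higher in positive cells. Of 22 genes on this list, which also holds the RNAs of the ribonucleoproteins RNase MRP (Rmrp) and RNase P (Rpph1), 16 were at the level. All 16 had higher levels in the labelled cells. Their median log2 difference was 1.33, beside 0.17 over all genes at the level, and 0 passed at an FDR under 0.05 in the authors' deposited table. In 9 of the 16 the groups did not overlap, where 15.3% of all genes at the level were separated in this direction, and 2 (Snhg18 and Rpph1) had an unadjusted p under 0.05 in that table, where 3.49% of genes at the level did. The list was chosen with earlier results of these data known, so its direction is a description of these libraries. Epb41l4aos and Snhg9, both among the 9, reached the level only through the mean of the labelled cells. 6 of the 16 are members: Snhg18, Snhg12, Epb41l4aos, Dancr, Snhg6 and Snhg20.

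Snhg18 (ENSMUSG00000096956.2, chromosome 15, 32240565 to 32244662, minus strand, mm10), which carries Snord123 in an intron, was at 7.42, 4.09, 2.16 and 0 RPKM. These values rest on 972, 698, 150.0 and 0 reads, and the 0 of the deeper negative library allows up to 0.00989 RPKM at 3 reads. The positive libraries exceeded both negative ones. Its log2 difference was 3.56 (SE 2.29) and its p was 0.0146 in the authors' deposited table, the smallest among members, with an FDR of 1.00. On log2(RPKM + 1) the limma log2 difference was 1.88 (adjusted p = 0.482), and the difference was 1.32 without the deeper negative library, on the scale of RPKM + 0.1.

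The start of Snhg18 lies 151 bases from that of Sema5a, which encodes a semaphorin, on the opposite strand. Sema5a was at a mean of 0.0199 RPKM with a log2 difference of 0.06, so the 2 genes on either side of this shared region differed in level per kilobase of span. As the span includes introns, this does not compare their numbers of transcripts or reads. The RefSeq promoter window (GRCm38.p6, chr15:32244613-32244912, minus strand, 250 bases before to 50 after the start) is shown because it covers this region. It has 75.3% G and C and, in capitals, 5 matches to CCGCCC on either strand, a GC box.
Snhg18 promoter window: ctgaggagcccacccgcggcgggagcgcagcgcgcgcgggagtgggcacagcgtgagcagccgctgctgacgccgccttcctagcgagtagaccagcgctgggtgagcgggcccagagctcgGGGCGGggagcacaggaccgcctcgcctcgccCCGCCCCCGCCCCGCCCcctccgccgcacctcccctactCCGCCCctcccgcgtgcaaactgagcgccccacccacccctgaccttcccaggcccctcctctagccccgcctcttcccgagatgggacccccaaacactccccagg

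Snhg12 (ENSMUSG00000086290.8, chromosome 4, 132308678 to 132311024, plus strand), a host of the snoRNAs Snora16a, Snora44, Snora61 and Snord99, was at 4.12, 10, 0.879 and 1.81 RPKM. Its groups did not overlap, and the log2 difference was 2.26 (SE 0.80), between 1.62 and 2.89 with each library left out. Its p was 0.128 in the authors' deposited table, and limma on log2(RPKM + 1) gave an adjusted p of 0.482. Its RefSeq window (GRCm38.p6, chr4:132308428-132308727, plus strand) is shown as that of a snoRNA host with separated groups in which no library is at 0. It has 53.0% G and C, 0 matches to any of the 6 motifs searched, and hence no capitals.
Snhg12 promoter window: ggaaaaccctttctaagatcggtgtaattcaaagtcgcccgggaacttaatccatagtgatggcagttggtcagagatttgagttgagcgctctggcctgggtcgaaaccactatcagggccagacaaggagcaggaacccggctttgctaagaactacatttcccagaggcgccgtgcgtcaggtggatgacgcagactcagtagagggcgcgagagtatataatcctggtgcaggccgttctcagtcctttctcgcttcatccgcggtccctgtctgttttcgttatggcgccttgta

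Epb41l4aos, an antisense neighbour of Epb41l4a that carries a snoRNA, was at 2.77, 3.45, 0.323 and 1.17 RPKM, without overlap and with a log2 difference of 2.12 (SE 0.81). Epb41l4aos passed the level only through the mean of the labelled cells. Epb41l4a itself was at a mean of 0.00968 RPKM. That level is divided by a long span, as the starts of the 2 genes lie 212314 bases apart, so it does not mean few reads. Snhg6, host of Snord87, was at 3.83, 9.01, 1.31 and 3.62 RPKM, with a log2 difference of 1.39 (SE 0.93), and its lower positive and higher negative values lay close together. Snhg20 was at 9.44, 7.20, 7.81 and 2.89 RPKM, so that 1 negative library lay between the positive ones, and its difference was 0.78 (SE 0.73). Dancr, named for restraining differentiation and host of Snora26, could not be resolved: it lay between 3.69 and 8.0 RPKM in the positive group and between 0.387 and 8.49 in the negative group, with a difference of 1.44. Dancr has a second row in the table, under another identifier, that overlaps this one and was below the level, so its reads may be split between them.

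Hosts of other gene types were also higher. Gas5, a host of many snoRNAs, was at 30.8 to 62.2 RPKM in positive cells and at 18.5 and 26.0 in the negative libraries, a difference of 1.00. Snhg9 was at 2.81, 2.93, 0.542 and 0.652 RPKM, without overlap (log2 difference 2.09, SE 0.12), but reached the level only through the labelled cells. Snhg8 was at 16, 25.8, 7.80 and 10.6 RPKM and Snhg1 at 9.29, 21.6, 5.22 and 6.99, both without overlap. Snhg4 was at 1.72, 2.30, 2.01 and 1.55 RPKM and differed by 0.17 only. Rpph1, at 311, 37.8, 59.8 and 1.95 RPKM, and Rmrp, at 24.2, 0.976, 3.66 and 0.150, had the widest spread, and in each the shallower positive library and the shallower negative library were the high ones.

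**Figure D3:**
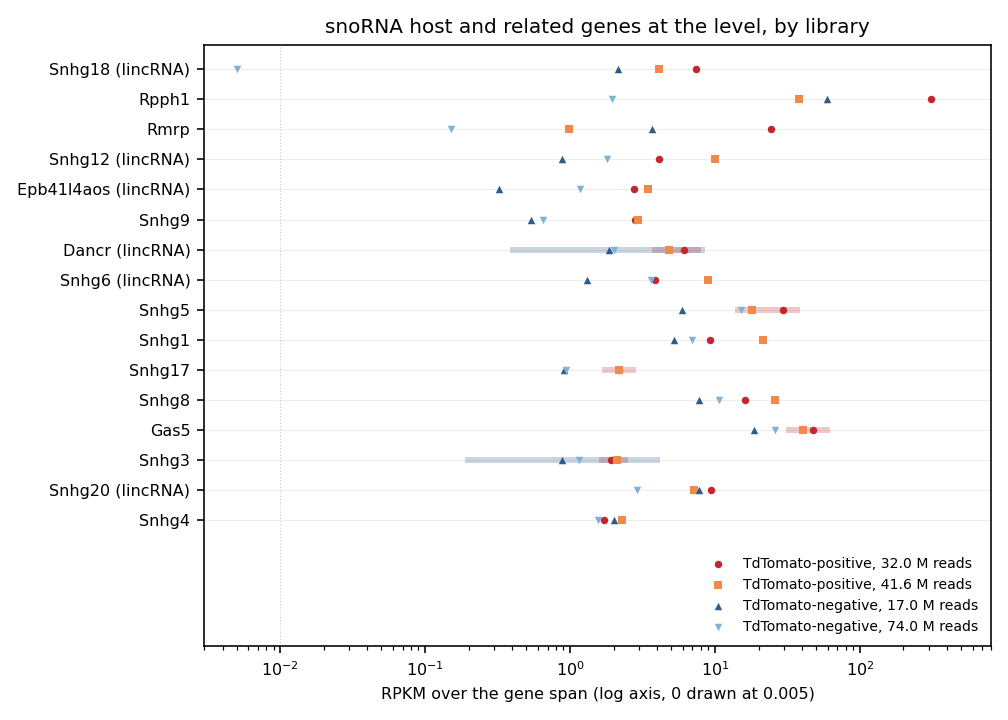
RPKM over the gene span (log axis, 0 drawn at 0.005) of the 16 snoRNA host and related genes at the level in the 4 libraries, ordered by log2 difference, with members marked as lincRNA and pale bars where a group's values could not be assigned to its libraries. Snhg12, Epb41l4aos, Snhg9, Snhg1 and Snhg8 have both red and orange points to the right of both blue ones, while Snhg20 and Snhg4 overlap.

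The snoRNAs themselves could not be read in these libraries. Within members, 20 small RNA genes lie on the same strand in 10 hosts, and 0 of them were at the level. Reads were listed for Snord87 in Snhg6, with 1 read in 3 of the libraries, and for the 2 overlapping entries of Snora16a in Snhg12, with 2.36 and 1.64 reads in the shallower positive library. Host values therefore describe the spliced and unspliced host transcript, not its product.

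Other members high in positive cells were mostly uncharacterised. 1700007L15Rik (ENSMUSG00000097318.1, chromosome 16, 33379855 to 33380727, minus strand) was at 1.22, 4.49, 0 and 0.836 RPKM, from 34.0, 163, 0 and 54.0 reads. Its positive values lay above both negative ones, and its log2 difference was 3.01 (SE 1.85; p = 0.0413 in the authors' deposited table), or 1.39 without the shallower negative library. It passed the level only through the mean of the labelled cells, the group in which it was high. Its start lies 48 bases from that of Zfp148, a zinc finger transcription factor gene on the opposite strand, which had a difference of -0.33 at a mean of 0.339 RPKM. Newer GENCODE annotation (M21) types 1700007L15Rik as a bidirectional promoter RNA. The RefSeq window (GRCm38.p6, chr16:33380687-33380986, minus strand), whose start is 9 bases from that in the table, is shown for comparison with that of Snhg18. It has 70% G and C but 0 matches to CCGCCC or the other motifs, so nothing is in capitals.
1700007L15Rik promoter window: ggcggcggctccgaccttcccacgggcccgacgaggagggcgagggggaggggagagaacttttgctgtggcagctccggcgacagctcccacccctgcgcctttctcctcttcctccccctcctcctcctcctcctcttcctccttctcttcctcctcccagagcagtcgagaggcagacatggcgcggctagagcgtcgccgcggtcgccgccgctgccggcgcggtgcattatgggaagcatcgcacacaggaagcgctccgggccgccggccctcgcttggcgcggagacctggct

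4 further members with large differences had few or no reads in the deeper negative library. Gm22 was at 3.55, 1.79, 1.20 and 0 RPKM (log2 difference 2.86, p = 0.0498 in the authors' deposited table). 4930403P22Rik was at 1.98, 2.56, 1.57 and 0 RPKM (2.52), and Gm26802 at 1.35, 2.13, 1.06 and 0.0108 (2.33). In these 3 the groups did not overlap, yet the shallower negative library lay close below the positive ones. Without the deeper negative library the differences were 1.01, 0.49 and 0.63. Gm27000 was unresolved in positive cells, at 1.39 to 7.80 RPKM against 1.81 and 0 in the negative libraries, with a difference of 2.97 (p = 0.0448 in the authors' deposited table), or 0.84 without that library. Gm26802 passed the level only through the mean of the labelled cells.

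Gm28872, Gm26772, A330069E16Rik and 6330403K07Rik complete the 12 members with the smallest p among those higher. Of these, all but 6330403K07Rik passed the level only through the mean of the labelled cells. Gm28872 was at 2.36, 1.98, 0.746 and 0.257 RPKM (log2 difference 2.04, SE 0.63), but its span is 158 bases and its values rest on 11.9, 13.0, 2.00 and 3.00 reads. A330069E16Rik, which starts 164 bases from the DNA repair gene Ddb2, was at 4.07, 1.12, 0.732 and 0.582 RPKM, a difference of 1.58 (SE 0.90). Gm26772 was at 2.08, 0.977, 0.630 and 0.192 RPKM, a difference of 1.73 (SE 0.83), and lies on the opposite strand within the span of Zmiz1. 6330403K07Rik, typed as protein-coding in GENCODE M21, was at 9.29, 0.244, 1.87 and 0.0773 RPKM. Only 1 library of each group was high, and its difference of 1.60 (SE 2.95) turned to -0.78 without the shallower positive library and to -0.13 without the deeper negative one.

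Among the 22 members lower in positive cells, A130014A01Rik and 4833407H14Rik differed most. A130014A01Rik (ENSMUSG00000097944.1, chromosome 8, 120101582 to 120103904, plus strand) was at 0.566, 0.259, 3.32 and 3.87 RPKM, from 42, 25, 131 and 666 reads. Both negative libraries were high and close to each other. Its log2 difference was -2.92 (SE 0.46), between -3.36 and -2.47 with each library left out, and its p was 0.0410 in the authors' deposited table. It had the smallest limma p among the members, with an adjusted p of 0.482. However, it passed the level only through the mean of the unlabelled cells, the group in which it was high. Its start lies 100 bases from that of Zdhhc7, a palmitoyltransferase gene on the opposite strand, which had a difference of -0.60 at a mean of 1.65 RPKM.

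4833407H14Rik (ENSMUSG00000097779.1, chromosome 19, 53460631 to 53462723, plus strand) was at 1.23, 4.75, 12.3 and 22.5 RPKM. Negative cells were higher in each comparison of libraries, with a log2 difference of -2.72 (SE 1.03), between -3.66 and -1.78 with each library left out. Mirt1, another lincRNA, covers its whole length on the opposite strand and had a difference of -1.23 at a mean of 0.317 RPKM, and the reads of the pair cannot be told apart if the counting ignored strand, which the sources used here do not state. The nearest protein-coding gene, Dusp5, which encodes a phosphatase that inactivates ERK, lies 66386 bases away on the same strand and had a difference of -0.97. The RefSeq window (GRCm38.p6, chr19:53460372-53460671, plus strand) is shown as that of the most abundant member whose positive libraries both lay below the negative ones. It has 45.7% G and C, 2 overlapping matches to TTTGTT (read here as AACAAA) and 1 to GAGGAAGT, a core bound by ETS factors (read here as ACTTCCTC), all in capitals.
4833407H14Rik promoter window: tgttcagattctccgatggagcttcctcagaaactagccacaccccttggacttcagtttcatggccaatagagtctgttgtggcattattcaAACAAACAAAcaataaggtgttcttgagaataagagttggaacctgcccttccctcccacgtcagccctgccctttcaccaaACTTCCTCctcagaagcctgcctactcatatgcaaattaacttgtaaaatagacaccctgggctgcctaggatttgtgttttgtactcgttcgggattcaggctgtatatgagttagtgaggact

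AI839979 was at 2.78, 5.56, 6.11 and 17.2 RPKM, 1700020I14Rik at 4.07, 2.34, 5.90 and 7.94, and Gm12840 at 2.13, 0.784, 2.24 and 2.90. In all 3 both positive libraries lay below both negative ones, by a narrow margin in AI839979 and Gm12840. Their log2 differences were -1.36 (SE 0.89), -1.12 (SE 0.44) and -0.92 (SE 0.69). 2810405F17Rik was at 1.20, 0.0215, 1.37 and 1.35 RPKM, so its difference of -1.88 was made by the deeper positive library, with 1 read, and was -0.17 without it. This member also passed the level only through the mean of the unlabelled cells. B230208H11Rik, at 0.543, 2.95, 2.91 and 3.98 RPKM, had a difference of -1.32 (SE 1.14). Its neighbour Stx11, which encodes a syntaxin used in the granule release of cytotoxic lymphocytes, had one of -2.81.

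AI662270, listed among RNAs of myeloid and lymphoid cells, was at 4.23, 26.3, 12.8 and 35.3 RPKM. Its groups overlapped, and its difference of -1.0 (SE 1.49) was 0.30 without the shallower positive library. The other gene of that list at the level, F630028O10Rik, an antisense gene, was at 2.07, 9.20, 10.7 and 40.9 RPKM. In both, the deeper positive library was the higher of its group and the deeper negative one the higher of the other. Pan-leukocyte markers summed to between 21.7 and 129 RPKM in the positive group and between 57.6 and 372 in negative cells, and all 5 were lower in positive cells.

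Gm20186, Gm26526, Gm26762 and Gm26860 could not be resolved and were lower by -1.44, -0.96, -1.03 and -0.83. Of these, Gm26860 passed the level only through the mean of the unlabelled cells. Gm20186 lay between 0.761 and 2.29 RPKM in the positive group and between 0.821 and 16.3 in negative cells. It shares 1451 bases with Gm26809, another member on the opposite strand, at 6.14 to 11.4 against 3.23 to 48.6 RPKM and a difference of -0.59. Gm26762 lies wholly within Gpi1, the gene of a glycolytic enzyme, on the opposite strand, and both had negative differences (-1.03 and -0.78).

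Genes on a list of nuclear and chromatin RNAs differed in sign among themselves, and where each RNA lies in the cell was not measured. Of 28 genes on this list, 8 were at the level, 3 higher and 5 lower, with a median of -0.11. Malat1, second in level among members, lay between 639.8 and 1407 RPKM in the positive group and between 60.9 and 2790 in the negative group, with a difference of 1.20. With each library left out this ran from -1.56 to 3.96 over both assignments, so its sign was not stable. Neat1 lay between 21.1 and 51.4 RPKM and between 7.56 and 158, with a difference of -0.07. Malat1 and Neat1 lie beside each other on chromosome 19. Their differences had opposite signs, and the difference between them was not tested. Malat1 overlaps Gm37376, whose mean was 3648 RPKM over 453 shared bases, and the reads of the pair cannot be told apart there.

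Xist, which silences 1 X chromosome in female cells, lay between 1.62 and 6.88 RPKM in the positive group and between 0.214 and 19.2 in negative cells. Its difference of 0.50 ran from -2.47 to 3.47 with each library left out, over both assignments, and its whole span lies under Tsix on the opposite strand (0.63). 1700020I14Rik, the mouse Cyrano RNA, which drives the decay of a microRNA, and Tug1, an abundant RNA of the same list but of another gene type, were both lower, by -1.12 and -1.19. Tug1 lay between 4.66 and 6.71 RPKM in the positive group and between 3.63 and 45.4 in negative cells.

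2 members, Gm26917 and Gm42418, lie in a stretch of chromosome 17 that matches ribosomal RNA, and with Malat1 they hold 85.5% of the summed mean RPKM of all members. Gm26917 lay between 667 and 1012 RPKM in the positive group and between 153 and 7257 in negative cells, and Gm42418 between 141 and 448 and between 32.8 and 3163. Both had a difference of -0.36, which ran from -3.14 to 2.43 and from -3.65 to 2.94 with each library left out, over both assignments. Gm42418 shares its whole span with Rn18s-rs5, an annotated ribosomal RNA gene at a mean of 4132 RPKM and a difference of 0.66. Reads from ribosomal RNA cannot be told apart from those of these 2 lincRNAs.

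Of the other abundant members, Gm26532 was at 41.5, 29.4, 19 and 15.9 RPKM, without overlap and with a difference of 1.00 (SE 0.28; 0.75 to 1.25 with each library left out). Gm28875 was at 25.1, 8.20, 8.81 and 3.58 RPKM, with a difference of 1.34 (SE 1.02) and overlapping groups. Gm28592 lay between 19.8 and 42.8 RPKM in the positive group and between 0.958 and 106 in negative cells. It lies wholly under Phlda1, a growth-regulating gene on the opposite strand at 70.4 RPKM, and the 2 differed by 1.47 and 1.06. Gm26825 overlaps a processed pseudogene, Gm15459, over 1941 bases, and its difference of 0.75 ran from -3.47 to 4.96 with each library left out, over both assignments.

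Mir17hg (ENSMUSG00000089726.2, chromosome 14, 115042879 to 115046727, plus strand) is the host of the miR-17-92 cluster, known for promoting proliferation in blood and other tissues. It was at 1.5, 0.993, 0.918 and 2.89 RPKM, with the deeper negative library alone high. The difference was -0.40 (SE 0.82), or 0.38 without that library. The 2 other genes at the level on the list of microRNA hosts, Mir22hg and Dnm3os, had 0.19 and 1.95. Dnm3os was at 2.67, 0.952, 1.84 and 0 RPKM (SE 2.25). Outside this list, 6720427I07Rik, Snhg20 and Gm27000 also hold a microRNA gene on the same strand, with differences of 0.17, 0.78 and 2.97. The mature RNAs of the cluster are shown because they fall into 4 seed families, which the host value covers together. They are from RefSeq on GRCm38.p6, with the seed (bases 2 to 8) in capitals. miR-17-5p and miR-20a-5p share AAAGUGC, miR-19a-3p and miR-19b-3p share GUGCAAA, and miR-18a-5p and miR-92a-3p have seeds of their own.
mmu-miR-17-5p: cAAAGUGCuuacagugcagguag
mmu-miR-20a-5p: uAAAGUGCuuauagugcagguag
mmu-miR-18a-5p: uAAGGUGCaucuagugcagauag
mmu-miR-19a-3p: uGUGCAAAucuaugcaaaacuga
mmu-miR-19b-3p: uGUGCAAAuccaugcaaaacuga
mmu-miR-92a-3p: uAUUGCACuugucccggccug
The 6 microRNA genes of this host were at 0 RPKM in all 4 libraries, so that only the host could be measured.

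The members are short genes with little intron. Their median span was 2107 bases, against 10784 for protein-coding genes at the level, and exons covered a median of 86.3% of the span. LincRNAs with long introns reached the level less easily, because the rule used the level over the whole span, introns included. Span and exon share of the members are therefore a description, partly set by the rule. Since levels are per kilobase of span, members with long introns rank lower than they would per exon: Snhg18, with exons over 36.3% of its span, had a mean of 3.42 RPKM over the span and 9.43 per kilobase of exon. Identifiers of 71 members occur in GENCODE M21, where 64 are still lincRNAs and 7 have another type, 4 of them bidirectional promoter RNAs.

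Although typed as intergenic, 18 members overlap the nearest protein-coding gene, 16 on the opposite and 2 on the same strand. Without these 18, the median log2 difference was 0.71 with 38 of 55 members higher. The 2 on the same strand are Gdap10 within Nampt and Gm26523 within Prrx1, a transcription factor gene of limb mesenchyme (1.56 beside 1.87), and their reads cannot be told apart from those of the coding gene. In all, 16 members overlap another gene at the level.

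14 members start within 1000 bases of a protein-coding gene on the opposite strand. Of these, 12 were higher in positive cells but 4 of the coding partners were, and the medians were 0.88 and -0.21. An example is Gm26910, 19 bases from Seh1l, a nuclear pore gene (0.93 beside -1.04). 2010320M18Rik, 102 bases from Pik3r2, was at 10.4, 4.31, 2.86 and 1.87 RPKM and had the same sign as its partner (1.49 beside 0.67). Partners were at the level in only 8 of the 14, and the difference within a pair was not tested.

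Over all arrangements, 33 members had a nearest coding gene at the level. In 20 the pair had the same sign, 10 both higher and 10 both lower. In 12 the lincRNA was higher and the coding gene lower, and in 1, Gm12840 beside Dmap1, the reverse. Signs were counted whatever the size, such as 0.04 for Gm17275 or -0.05 for Rbm25 beside Gm26623. Among the lincRNAs of the 12, several changed sign with a library left out, under at least 1 assignment. They were Gm17275, Gm5547, Gm26623, Gm17586, E230013L22Rik, 4930562F07Rik and 6330403K07Rik. The signs of the pairs were not tested. Fosb, an immediate early gene, stood beside Gm26802 (0.82 beside 2.33), and Atf3, a stress-response factor, beside D730003I15Rik (1.00 beside 0.52).

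**Figure D4:**
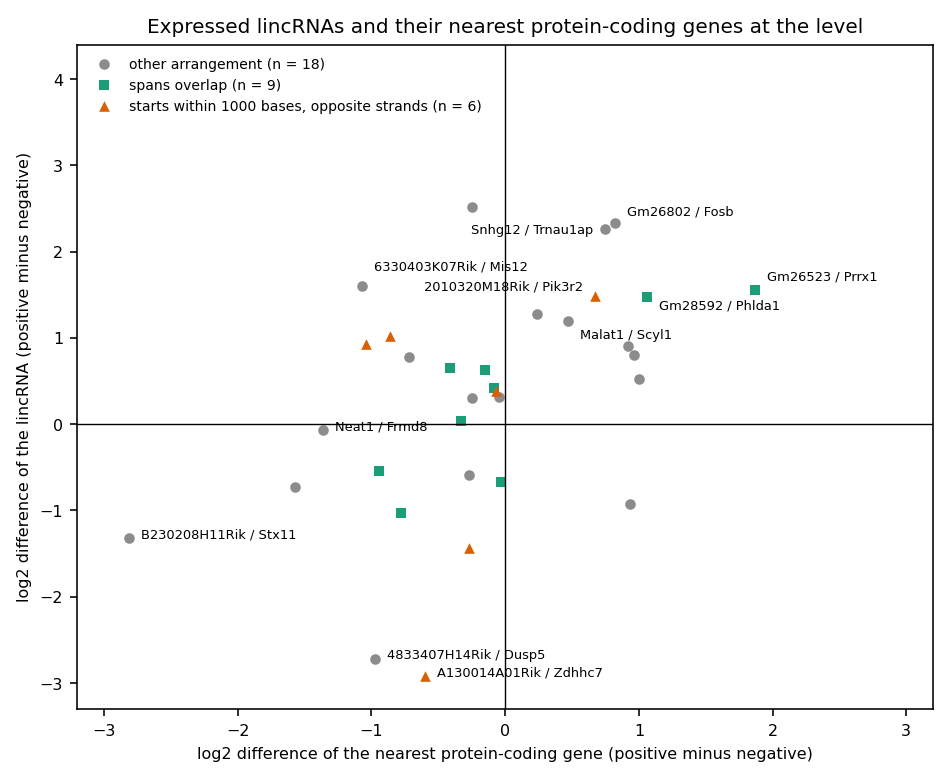
Log2 difference (positive minus negative) of the 33 lincRNAs whose nearest protein-coding gene was at the level, against that of the coding gene, by arrangement (overlapping spans, starts within 1000 bases on opposite strands without overlap, other). The upper left part, lincRNA higher and coding gene lower, holds 12 pairs and the lower right holds 1.

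RefSeq promoter windows were found for 32 members, 26 of them with a start within 100 bases of that in the table. These 26 had a median of 59.4% G and C, against 52.7% over all windows. CCGCCC occurred on either strand in 13 of the 26 (50%), against 35.7% of all 32851 windows of 300 bases. The other motifs were TTTGTT (26.9% against 20.2%), GAGGAAGT (7.69% against 3.2%), TATAAA (7.69% against 13.6%), TGTGGT, a core bound by RUNX factors (7.69% against 16.8%), and ACAATG, one bound by SOX factors (7.69% against 12.6%). Each of the last 4 shares rests on 2 windows.

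The remaining 35 members ran from -0.81 to 1.56 in log2 difference, 30 of them higher and 5 lower, with mean levels from 1.07 to 7.78 RPKM. In 6 of them, all higher, the groups did not overlap, where 15.3% of all genes at the level were separated in this direction: 2010320M18Rik, Gm42595, Gm26910, Fam120aos, 4632415L05Rik and Gm6297. Fam120aos and Gm6297 passed the level only through the mean of the labelled cells. Gm42595 was at 2.28, 1.87, 1.03 and 0.605 RPKM and Fam120aos at 1.61, 1.22, 0.645 and 0.859, with small spreads (SE 0.36 and 0.26) around differences of 1.28 and 0.83. Differences within 0.5 of 0 were found in 9, among them 1700096K18Rik at 2.86, 3.90, 3.48 and 3.09 RPKM. Of the 2 genes listed around Sox9, 0 were at the level.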

How the data were processed

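RNA was measured in 2 TdTomato-positive and 2 TdTomato-negative libraries, made with a low-input kit and read as 75-nucleotide pairs. Per the submitters' processing notes the work used STAR and Partek, of versions not given in the sources used here, and mm10. The deposited table holds the authors' own comparison over 47643 genes in 29 columns, with no column per library. Per the file headers it gives group means as a signal, a difference on the natural log scale, a ratio, a p-value with its step-up FDR, and a signed fold change (a score).

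The 4 library values of each gene were solved from the deposited group means, maximum and natural log difference, with 1 solution for each gene. They equal RPKM plus an offset of 0.1, scaled again by depth and span. This scale and the depths (32.0, 41.6, 17 and 74.0 M reads) were inferred from the values. Values were assigned to libraries by whole reads (tolerance 0.01 reads, plus 2e-07 for each read counted, at most 0.05), by multiples of 0.25 reads (0.003), by 1 whole value (0.002) or because the other assignment was negative, which resolved 47.9% of the 6559 genes at the level. For the others, the assignment with the smaller spread was used and both are covered by ranges, so their SEs are at the low end. Solving was tested on simulated whole reads only, where 100.0% of genes at the level were resolved and all of these were correct. Fractional reads, which the data hold, were not simulated. The rules on multiples of 0.25 reads and on 1 whole value were therefore not tested. No value carries a collection number, so the correlation that would check a pairing of libraries could not be computed.

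The main test is the authors' FDR at 0.05, two-sided, over all genes. Limma 3.58.1 (R 4.3.3, with a trend) on log2 of the recovered RPKM is the alternative. In earlier work on these data the authors' test became the main one only once limma had called 0 genes, and it weighs a gene's own spread little. Members and lists were chosen with earlier results of these data known, and the counts of separated groups, the rule on multiples of 0.25 reads and the 100-base limit for promoter windows were set after the table was seen. Named were the 12 members highest in mean RPKM, the 12 with the smallest p in each direction, those on the lists, the 3 on each side of the threshold, and the nearest coding genes of named members; other genes were named after their values were seen. A read-through gene, Gm20388, was skipped as a neighbour. Table coordinates equal those of GENCODE M21 for 86.3% of the 47224 genes with a shared identifier. Stops in the table lie 1 base past the gene end, and ends are printed without it.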

Additional observations from a re-analysis of the deposited data

How the results depend on the processing

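The alternatives were limma in several forms, other thresholds of level, another pseudocount, other assignments, rescaled libraries and each library left out. In every form of limma and at each threshold of level, 0 members passed an adjusted p or FDR of 0.05, and the smallest adjusted p among members in limma was 0.0676. At an unadjusted p under 0.05, where the authors' deposited table holds 4 members higher and 1 lower, limma gave 5 higher and 3 lower on log2(RPKM + 1) (5.87% and 3.66% of all genes tested), 4 and 3 on log2(RPKM + 0.1) (5.61% and 3.45%), 6 and 3 with no filter on low values (3.39% and 2.1%), 4 and 2 on resolved genes (3.37% and 2.96%) and, with the other assignment, 0 and 1 (0.610% and 0.579%). No value says which libraries were collected together, so both pairings were run as a replicate block on the 47 resolved members: with the shallower positive library paired with the shallower negative one, 11 were higher and 4 lower (15% and 11.3% of all genes tested; smallest adjusted p in limma = 0.0676), and with the other pairing 0 and 2 (1.24% and 1.18%; smallest adjusted p in limma = 0.940). With each library left out in limma, on the assignment of smaller spread, the counts ran from 2 to 13 higher and from 1 to 4 lower, while the shares of all genes tested ran from 1.74% to 8.02% and from 1.37% to 7.35%. A level threshold of 140 left 2 higher by the authors' p.

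The median log2 difference of 0.70 was 0.47 with a pseudocount of 1, 0.52 at a level threshold of 35, 0.78 over resolved members and 0.63 after rescaling to the median coding gene, a shift of 0.06. It ran from 0.38 to 0.74 with each library left out and, with the other assignment (added after seeing the data), from -0.13 without the shallower negative library to 0.91 without the deeper one, while the SD of the members' median between libraries of a group was 0.06. The cause of these changes was not tested. Members higher in positive cells, 51 of 73, numbered 93 of 143 at the threshold of 35 and 24 of 38 at 140, which change the number of members, and ran from 43 to 49 with each library left out, or from 36 to 58 with the other assignment. Leaving out members that overlap the nearest coding gene, or those that passed through 1 group mean only, both chosen after seeing the data, gave medians of 0.71 and 0.71. With a pseudocount of 1, 6 of the 38 named members moved by more than their SE and 0 changed sign. With each library left out, 3 of the 24 named members that were resolved changed sign (6330403K07Rik, AI662270 and Mir17hg), as did 13 of the 14 unresolved ones under at least 1 assignment, all but Gm27000. Depth limits the low members most: with 17 M reads, 3 reads of a gene such as 1700007L15Rik correspond to 0.202 RPKM.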
